A study of Mus musculus with 6 samples.

Results

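The 32 genes described here encode glutamate receptors and the auxiliary proteins that ride with them. They were chosen by gene symbol from a table of 51826 genes, and all 32 were found and passed the filter on low counts, which left 18956 genes for testing. The list holds 4 AMPA receptor subunits (Gria1 to Gria4), 6 NMDA receptor subunits (Grin1, Grin2a, Grin2b, Grin2c, Grin2d, Grin3a), 6 kainate and delta subunits (Grik1 to Grik5, Grid1) and 6 metabotropic receptors (Grm2, Grm3, Grm4, Grm5, Grm7, Grm8). It also holds 8 AMPA receptor auxiliary subunits (Cacng2, Cacng3, Cacng4, Cacng5, Cacng7, Cacng8, Cnih2, Cnih3) and 2 kainate receptor auxiliary subunits (Neto1, Neto2).

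RNA came from mouse tissue that the labels call the paraventricular nucleus of the hypothalamus, and the question was what loss of ADAM17, a membrane protease that sheds proteins from the cell surface, does to gene expression there. Wild-type mice (WT) gave 3 libraries and mice with ADAM17 knocked out in glutamatergic neurons (KO) gave 3, each genotype with 2 from males (replicates 1 and 2) and 1 from a female (replicate F1). The labels name neither the Cre driver or strain nor the age or any treatment, and they do not say whether a library is 1 mouse or a pool. The female library of a genotype must come from another animal than the male ones, but nothing states that the 2 male libraries came from separate animals. The p-values measure the spread between these libraries, which may be technical in part.

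AMPA receptors are tetramers of GluA subunits that carry the fast excitatory current at most brain synapses. NMDA receptors pair the obligatory subunit GluN1, from Grin1, with GluN2 or GluN3 subunits, admit calcium and trigger lasting changes in synaptic strength. Kainate receptors tune release and excitability, delta receptors organise synapses, and metabotropic receptors signal through G proteins. Auxiliary subunits decide how many receptors reach the surface and how long their channels conduct: the TARPs (transmembrane AMPA receptor regulatory proteins, from the Cacng genes) and the cornichons (Cnih2, Cnih3) bind AMPA receptors, and the Neto proteins bind kainate receptors. In the paraventricular nucleus, glutamate acting on AMPA and NMDA receptors drives the neurons that raise sympathetic outflow.

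The pore of an AMPA receptor is lined at one site by a residue whose codon is changed by RNA editing in Gria2 and decides whether calcium passes. The 4 pore windows are shown because the share of Gria2 among AMPA subunit RNA is one of the readouts below. Each is 45 bases of coding sequence, 5′ to 3′ in the direction of the gene, from GENCODE M21 transcripts on GRCm38, with the pore codon in capitals. They lie at chr11:57243073-57243117 on the plus strand for Gria1, chr3:80706890-80706934 on the minus strand for Gria2, chrX:41610244-41610288 on the plus strand for Gria3 and chr9:4464116-4464160 on the minus strand for Gria4.
Gria1: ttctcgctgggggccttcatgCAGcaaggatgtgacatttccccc
Gria2: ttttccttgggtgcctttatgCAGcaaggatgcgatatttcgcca
Gria3: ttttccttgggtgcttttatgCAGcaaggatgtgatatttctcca
Gria4: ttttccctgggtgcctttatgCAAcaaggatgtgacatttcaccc
The capital codon reads CAG in Gria1, Gria2 and Gria3 and CAA in Gria4, and all 4 encode the same residue in the genome. Over the 45 bases Gria2 and Gria3 each matched Gria1 at 36 positions and Gria4 at 39. Editing was not measured, since the deposited table holds only totals per gene.

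The TARPs fall into 2 types by the tail of the protein. Type I TARPs (Cacng2, Cacng3, Cacng4, Cacng8) end in a motif that binds the scaffold PSD-95 and so holds AMPA receptors at the synapse, and type II TARPs (Cacng5, Cacng7) end differently. The last 30 coding bases are shown because the 2 types are summed separately below, with the last 4 codons before the stop codon in capitals. They are from the same transcripts, at chr15:77995152-77995181 (minus strand) for Cacng2, chr7:122768814-122768843 (plus) for Cacng3, chr11:107734783-107734812 (minus) for Cacng4, chr7:3415573-3415602 (plus) for Cacng8, chr11:107877355-107877384 (minus) for Cacng5 and chr7:3366916-3366945 (plus) for Cacng7.
Cacng2: aacacagccaaccgccggACCACGCCCGTA
Cacng3: aatccggccaacagacgtACCACGCCTGTC
Cacng4: agcatgctgaaccggcggACGACTCCCGTG
Cacng8: aacacgctcaacaggaaaACCACGCCCGTG
Cacng5: gactatgaccagatgtcaTCATCTCCCTGC
Cacng7: gaccatctccacatctccACTTCGCCGTGC
The capitals of Cacng2, Cacng3, Cacng4 and Cacng8 differ in bases but encode the same 4 residues, and those of Cacng5 and Cacng7 encode other sets. Between Cacng5 and Cacng7 the encoded residues match in all but the first of the 4 codons.

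The libraries held 35114426 to 54421330 counts, of which 149904 to 232433 fell on the 32 genes, and no gene of the list had fewer than 578 counts in a library. Levels are given as CPM, a gene's counts relative to the counts of its library, scaled by TMM. Adam17 had a CPM of 17.1, 17.2 and 15.6 in the WT libraries (order: replicate 1, 2, F1) and 15.4, 14.5 and 13.9 in the KO libraries. Every KO value lay below every WT value, as in 7.32% of all genes tested, with a log2 fold change (KO minus WT) of -0.19 ± 0.11 (SE; edgeR adjusted p = 0.747). The labels place the deletion in glutamatergic neurons, and the part of Adam17 RNA that comes from these cells was not tested. KO replicate 1 stood apart by its mitochondrially encoded RNA, 20.63% of counts against 7.22% to 9.2% in the other 5. Defining markers of the labelled nucleus were low, with Avp at 5.2 to 38.2, Oxt at 4.0 to 27.6, Crh at 5.5 to 8.1 and Sim1 at 0.6 to 2.5 CPM, while Slc17a7, a marker of cortical and hippocampal excitatory neurons, was at 661.9 to 1019.4. Gabra6, a marker of cerebellar granule cells, was at 18.9 in WT replicate F1 and 13.9 in KO replicate 1 and at 0.8 or below in the other 4.

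Across the 32 genes, 28 (87.5%) had a log2 fold change above 0 with TMM scaling, 14 with library totals and 8 with TPM. With TMM the median was 0.14, against 49.4% of all genes tested above 0 and a median of -0.004. EdgeR called 0 of the 32 at an adjusted p under 0.05, against 0.00528% of all genes tested (1 gene), and the smallest adjusted p among the 32 was 0.735. DESeq2 called 1 of the 32, Cacng3, against 0.396% of all genes. At an unadjusted p under 0.05 by edgeR, 8 of the 32 (25%) were higher in KO and 0 were lower, against 3.85% and 2.53% of all genes. In 7 of the 32 (21.9%) all 3 KO libraries lay above all 3 WT libraries, and in 0 below, against 6.61% and 7.32% of all genes. The 7 were Grin1, Grid1, Grm5, Grm7, Cacng2, Cacng7 and Cnih3. With library totals only Grin1, Cacng2, Cacng7 and Cnih3 stayed above, and Gria4 lay below, against 2.11% and 16.8% of all genes. With deposited TPM 0 of the 32 lay above, and Gria4 and Grin2d lay below, against 0.823% and 21.1%.

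Auxiliary subunits and receptors differed in the size of these values. All 10 auxiliary genes had log2 fold changes above 0, from 0.03 to 0.48 (median 0.38), 8 of them also with library totals and 7 with TPM, while the 22 receptor genes had a median of 0.11, with 18 above 0. By class the medians were 0.04 for AMPA subunits, 0.12 for NMDA subunits, 0.08 for kainate and delta subunits, 0.15 for metabotropic receptors, 0.38 for AMPA auxiliary subunits and 0.39 for the Neto genes. The difference between the classes was not tested. In bulk tissue, a change in the number of cells of a type and a change in RNA per cell cannot be told apart.

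**Figure D1:**
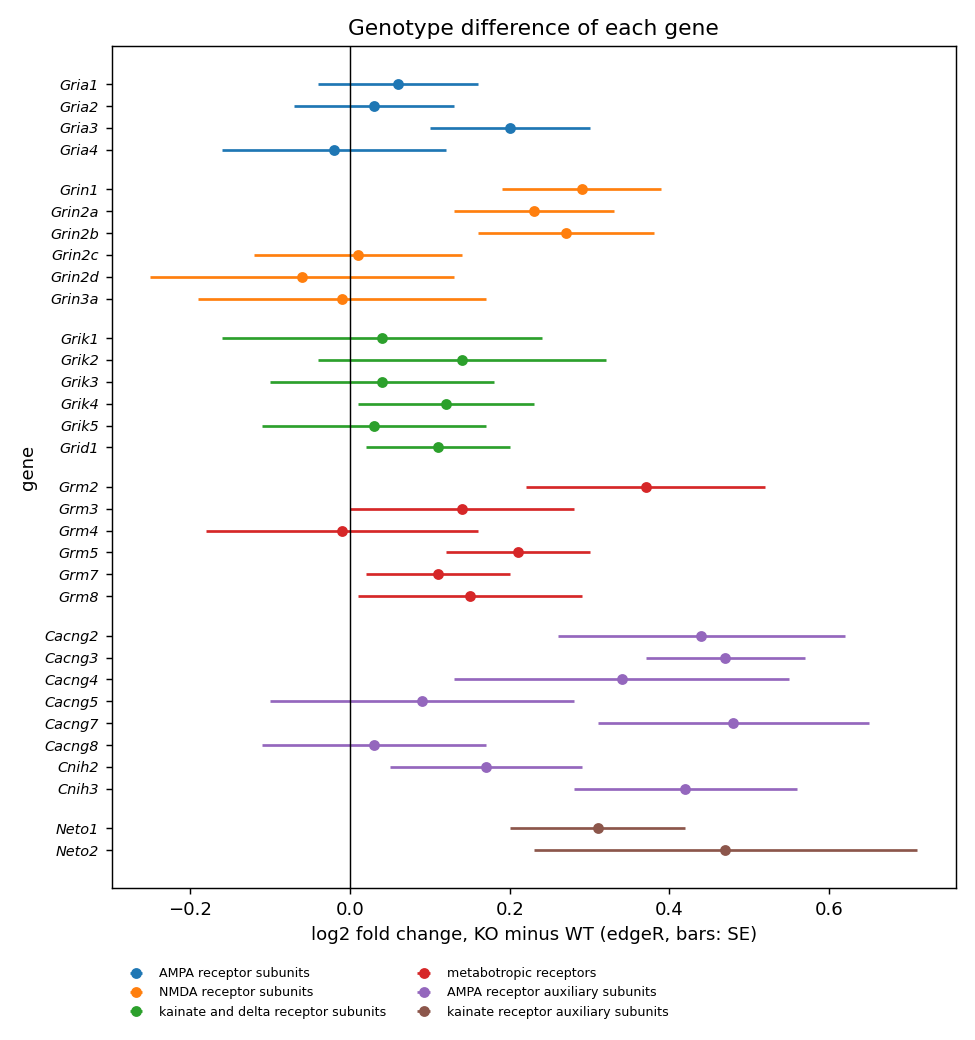
Log2 fold change (KO minus WT, horizontal axis) of each of the 32 genes (vertical axis) from the edgeR fit with sex as a term, in 3 WT and 3 KO libraries; points are estimates, bars are ± 1 SE and colours mark the classes. Most points of the Cacng, Cnih and Neto genes sit between 0.3 and 0.5, except Cacng5 (0.09), Cacng8 (0.03) and Cnih2 (0.17), and the AMPA subunit points lie near 0 except Gria3 (0.20); of the 32 points, 28 are above 0 here, 14 with library totals and 8 with TPM.

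In what follows, levels across libraries are TMM-scaled CPM, in which TMM sets most genes to the same level in each library, and levels across genes are the deposited TPM, which allow for gene length. Library values are given in the order replicate 1, replicate 2, replicate F1. SE belongs to the log2 fold change, adjusted p-values are edgeR's over all genes tested, and coordinates are those of the deposited table, which names no build. For 27 of the 32 genes they are identical to GENCODE M21 on GRCm38.

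Among the AMPA subunits the summed CPM of the 4 genes was 1180, 1181 and 1191 in WT and 1307, 1201 and 1192 in KO. Gria1 (ENSMUSG00000020524, chr11:57011387-57330244), which encodes GluA1 and was the most abundant of the 4 at 212 ± 21.9 TPM in WT and 181 ± 36.1 in KO (SD, n = 3 each), was at 472.3, 444.3 and 533.8 CPM in WT and 513.3, 508.7 and 482.2 in KO. The groups overlapped, the female WT library being the highest of the 6 (log2 fold change 0.06 ± 0.10, adjusted p = 0.901). Gria3 (ENSMUSG00000001986, chrX:41400854-41678601), for GluA3, was at 194.9, 209.1 and 164.0 CPM in WT and 243.7, 208.5 and 197.5 in KO. KO replicate 1 was the highest and WT replicate F1 the lowest, and the other 4 libraries interleaved (0.20 ± 0.10, adjusted p = 0.744). Gria2, for the edited subunit GluA2, was at 359.1 to 407.2 CPM in WT and 371.7 to 412.9 in KO (log2 fold change 0.03 ± 0.10). Gria4, for GluA4, was at 109.9 to 134.4 and 108.7 to 137.7 CPM (log2 fold change -0.02 ± 0.14). By TPM the order in WT was Gria1, Gria2 (137 ± 7.41), Gria3 (96.6 ± 11.2) and Gria4 (63.7 ± 5.99), and no WT library broke that order.

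The mix of AMPA subunits overlapped between genotypes for each of the 4 genes. Gria2 made up 27.9%, 28.1% and 24.8% of AMPA subunit TPM in WT and 24.1%, 25.3% and 28% in KO. Gria1 made up 41.6% ± 3.61 in WT and 41.8% ± 1.03 in KO (SD, n = 3 each).

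Among the NMDA subunits, Grin1, Grin2a and Grin2b had log2 fold changes of 0.23 to 0.29, and Grin2c, Grin2d and Grin3a of -0.06 to 0.01. Without the female library of either genotype, which leaves a contrast of males, the first 3 were at 0.17 to 0.29 and the other 3 at 0.14 to 0.26, so the 2 sets overlapped. Grin1 (ENSMUSG00000026959, chr2:25291181-25319187), for the obligatory subunit GluN1 and the most abundant NMDA gene at 201 ± 19.2 TPM in WT and 199 ± 26.1 in KO, was at 354.7, 360.7 and 293.9 CPM in WT. In KO it was at 460.5, 388.1 and 381.3 CPM, above all WT libraries (log2 fold change 0.29 ± 0.10, adjusted p = 0.735). Its exons overlap those of Grin1os on the opposite strand, which was at a mean of 4.3 CPM, and the strand setting of the counting is not given in the sources used here.

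Grin2b (ENSMUSG00000030209, chr6:135713233-136173511) encodes GluN2B, the GluN2 subunit that prevails early in development and at extrasynaptic sites. It was at 460.7, 438.9 and 381.1 CPM in WT and 611.0, 488.8 and 449.0 in KO. The female KO library lay below the highest WT library, so the groups overlapped (log2 fold change 0.27 ± 0.11, adjusted p = 0.735), and without KO replicate 1 the log2 fold change was 0.17. Grin2a, for GluN2A, which prevails at mature synapses, was at 111.2 to 142.4 CPM in WT and 141.3 to 164.9 in KO (0.23 ± 0.10). The ranges of Grin2c, Grin2d and Grin3a in KO overlapped those in WT: 55.5 to 65.2 against 53.4 to 68.8 CPM, 33.3 to 48.7 against 35.8 to 45.1 CPM, and 58.5 to 70.7 against 54.5 to 86.8 CPM.

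As a share of GluN2 subunit TPM, Grin2b was at 37.9%, 37.4% and 31.8% in WT and 43.6%, 38% and 38% in KO. The KO libraries were above the WT ones, but 2 of the 3 by less than the WT libraries differed among themselves. The summed TPM of NMDA subunits per AMPA subunit was 0.7, 0.709 and 0.642 in WT and 0.813, 0.748 and 0.725 in KO (0.683 ± 0.0365 and 0.762 ± 0.0457, SD, n = 3 each), with no overlap.

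Kainate and delta subunits had log2 fold changes of 0.03 to 0.14 with all libraries. Without the female library of either genotype, they ranged from -0.16 (Grik3) to 0.34 (Grik1), and Grik3 and Grik5 (-0.07) were below 0. Grik5 (ENSMUSG00000003378, chr7:25009849-25072346), for a high-affinity kainate subunit and the most abundant of the class at 121 ± 11.1 TPM in WT and 106 ± 35.6 in KO, was at 191.7, 183.1 and 160.1 CPM in WT and 149.9, 207.5 and 187.3 in KO. KO replicate 1 was the lowest of the 6 libraries (log2 fold change 0.03 ± 0.14, adjusted p = 0.964). Grid1 (ENSMUSG00000041078, chr14:34819825-35583379), for the delta receptor GluD1, was at 87.7, 83.0 and 82.6 CPM in WT and 88.1, 94.1 and 91.9 in KO, which did not overlap but lay close (0.11 ± 0.09, adjusted p = 0.79). Grik4 (ENSMUSG00000032017, chr9:42518135-42944493), for the other high-affinity kainate subunit, was at 30.2, 30.0 and 32.3 CPM in WT and 33.1, 36.0 and 31.5 in KO, with KO replicate F1 inside the WT range (0.12 ± 0.11, adjusted p = 0.803). Of the low-affinity subunits, Grik1 was at 15.2 to 23.6 CPM in WT and 16.0 to 20.1 in KO, Grik2 at 56.4 to 70.7 and 61.5 to 88.6, and Grik3 at 116.5 to 167.6 and 143.6 to 156.9.

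Metabotropic receptors had 5 of 6 values above 0. Grm5 (ENSMUSG00000049583, chr7:87584168-88134907), for mGlu5, a postsynaptic receptor coupled to phospholipase C and the most abundant of the class at 91.3 ± 5.68 TPM in WT and 84.3 ± 16.7 in KO, was at 196.0, 186.7 and 175.7 CPM in WT and 231.5, 209.4 and 205.0 in KO. The groups did not overlap (log2 fold change 0.21 ± 0.09, adjusted p = 0.735). Grm2 (ENSMUSG00000023192, chr9:106643095-106656082), for mGlu2, an inhibitory autoreceptor, was at 40.6, 55.4 and 35.5 CPM in WT and 57.4, 56.0 and 55.0 in KO. The 3 KO libraries lay close together and 1 of them below WT replicate 2 (0.37 ± 0.15, adjusted p = 0.735), and without WT replicate F1 the log2 fold change was 0.24. Grm7 (ENSMUSG00000056755, chr6:110645581-111567230), for the presynaptic receptor mGlu7, was at 59.5, 59.9 and 57.2 CPM in WT and 68.0, 62.0 and 60.5 in KO, without overlap but with KO replicate F1 close to WT replicate 2 (0.11 ± 0.09, adjusted p = 0.803). Grm3, Grm4 and Grm8 had log2 fold changes of 0.14 ± 0.14, -0.01 ± 0.17 and 0.15 ± 0.14, and their ranges overlapped.

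The AMPA auxiliary subunits held the highest values of the list. Cacng3 (ENSMUSG00000066189, chr7:122670492-122769393), for the type I TARP gamma-3, was at 101.8, 111.0 and 80.2 CPM in WT and 160.2, 138.4 and 108.6 in KO. Both KO males were above all WT libraries and the KO female lay just below WT replicate 2, and within each sex KO was higher. The log2 fold change was 0.47 ± 0.10, with an edgeR adjusted p of 0.735 and a DESeq2 adjusted p of 0.042, and DESeq2 was the only one of the tests run that called it. It was 0.41 without KO replicate 1. Without both WT replicate F1 and KO replicate 1 it was 0.22, in a fit with no sex term whose only female library was KO.

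Cacng7 (ENSMUSG00000069806, chr7:3332955-3368221), for the type II TARP gamma-7, was the most abundant TARP at 255 ± 11.7 TPM in WT and 288 ± 18.9 in KO. It was at 234.6, 252.8 and 228.7 CPM in WT and 445.4, 312.4 and 256.2 in KO, where KO replicate 1 was far above the rest and KO replicate F1 was just above WT replicate 2. The log2 fold change was 0.48 ± 0.17 (adjusted p = 0.735), and 0.28 without KO replicate 1. Cacng8, for the type I TARP gamma-8, lies next to Cacng7 on chr7 (3390683 to 3415648) and had another pattern: it was at 76.5, 76.0 and 68.3 CPM in WT and 62.9, 84.9 and 76.7 in KO (0.03 ± 0.14, adjusted p = 0.968). The ratio of Cacng7 to Cacng8 by TPM was 1.98, 2.13 and 2.16 in WT and 4.71, 2.37 and 2.15 in KO, so KO replicate 1 alone stood away from the others.

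Cacng2 (ENSMUSG00000019146, chr15:77991748-78120028), for stargazin, the first TARP to be described, was at 111.8, 113.5 and 101.8 CPM in WT and 201.0, 124.3 and 122.8 in KO. The groups did not overlap, and the KO mean rested on replicate 1: the log2 fold change was 0.44 ± 0.18 (adjusted p = 0.735) and 0.20 without that library. Its exons overlap A730060N03Rik on the opposite strand, at a mean of 5.6 CPM. Cacng4, for gamma-4, had KO replicate 1 at 98.2 CPM against 51.7 to 67.5 in WT and 58.5 and 62.3 in the other KO libraries (0.34 ± 0.21, and 0.10 without KO replicate 1). Cacng5, for gamma-5, was at 19.9 to 28.2 CPM in WT and 22.5 to 31.1 in KO (0.09 ± 0.19).

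Of the cornichons, Cnih3 (ENSMUSG00000026514, chr1:181352628-181460641) was at 35.0, 37.9 and 35.0 CPM in WT and 58.7, 47.6 and 39.4 in KO. The 3 WT libraries lay close together and all 3 KO libraries above them (log2 fold change 0.42 ± 0.14, adjusted p = 0.735, and 0.30 without KO replicate 1). Cnih2 (ENSMUSG00000024873, chr19:5092871-5098418), the most abundant of all 32 genes at 360 ± 17.8 TPM in WT and 341 ± 99.9 in KO, was at 199.3, 187.9 and 179.0 CPM in WT and 194.6, 249.7 and 195.5 in KO. Only KO replicate 2 lay above the WT range (0.17 ± 0.12, adjusted p = 0.771). Its exons overlap Yif1a on the opposite strand, at a mean of 11.9 CPM, the highest such level among the 6 of the 32 genes whose exons overlap a tested gene.

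Neto1 (ENSMUSG00000050321) was at 90.5, 78.1 and 69.1 CPM in WT and 115.1, 96.5 and 84.3 in KO, with KO replicate F1 inside the WT range (log2 fold change 0.31 ± 0.11, adjusted p = 0.735). Neto2 (ENSMUSG00000036902, chr8:85636588-85700924) was at 66.3, 39.5 and 43.5 CPM in WT and 90.8, 59.4 and 57.7 in KO. WT replicate 1 lay above 2 of the 3 KO libraries, and the error was the widest of the list (0.47 ± 0.24, adjusted p = 0.738, and 0.27 and 0.28 without KO replicate 1 or WT replicate 2). Neto RNA per kainate subunit RNA by TPM was 0.367 ± 0.0442 in WT and 0.459 ± 0.113 in KO (SD, n = 3 each), and overlapped.

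**Figure D2:**
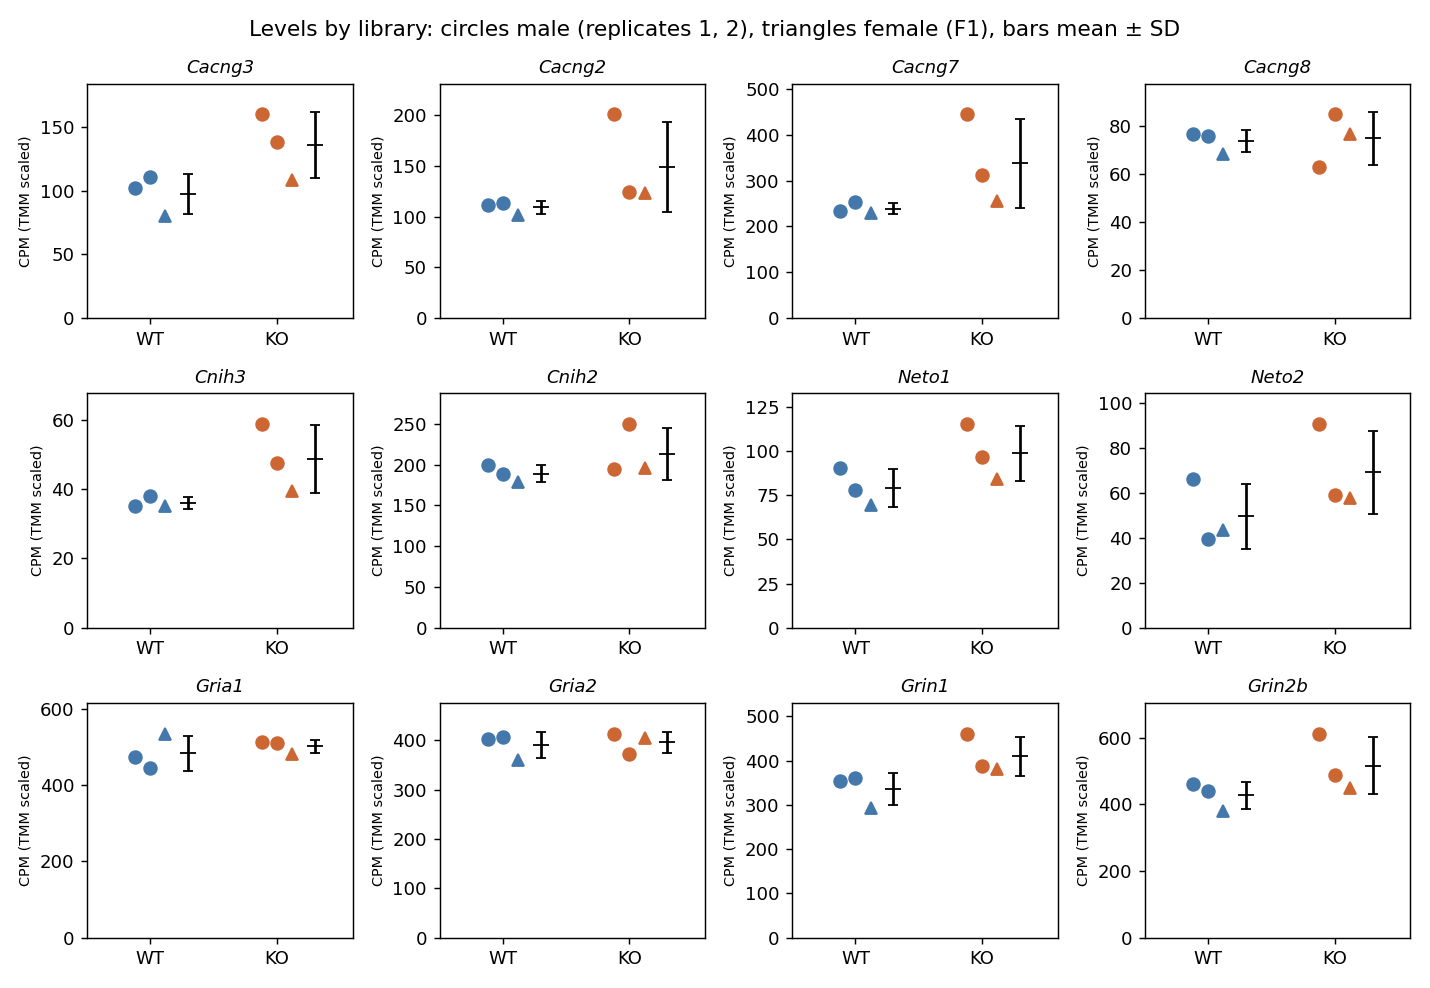
TMM-scaled CPM (vertical axes, from 0, one scale per gene) in each WT and KO library for 12 genes; circles are males (replicates 1 and 2 from left), triangles the female (F1), and bars the mean ± SD of 3 libraries. The first KO point is the highest of the 6 libraries for Cacng2 (201.0) and Cacng7 (445.4) but the lowest for Cacng8 (62.9), and Gria1 and Gria2 overlap.

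Ratios within a library do not depend on how libraries are scaled. Summed TARP TPM per summed AMPA subunit TPM was 1.13, 1.16 and 1.02 in WT and 1.63, 1.35 and 1.18 in KO, which did not overlap (1.1 ± 0.0777 and 1.39 ± 0.225, SD, n = 3 each; KO mean 1.27 without replicate 1). For type I TARPs the ratio was 0.573 ± 0.0571 in WT and 0.672 ± 0.0505 in KO, and for type II 0.531 ± 0.025 and 0.717 ± 0.177, both without overlap. For type II, KO replicate F1 (0.566) lay just above WT replicate 2 (0.558). KO replicate 1 was at 0.911, and the KO mean without it was 0.62. Cornichons per AMPA subunit were at 0.772 ± 0.0437 and 0.863 ± 0.123, and overlapped. Of 11 such ratios computed, 4 had no overlap: the TARP, type I, type II and NMDA ratios. All 4 have the AMPA sum as denominator, and the TARP ratio is the sum of the type I and type II ratios. By CPM, a measure unlike a ratio, 6.61% of all genes tested were higher and 7.32% lower without overlap. Of 25 subunit shares 2 had none: Grin2b among GluN2 subunits, and Cacng8 among TARPs, which was lower in KO (21.7% ± 0.306 in WT, 17.6% ± 5.36 in KO, and 20.6% in KO without replicate 1). With 3 libraries against 3, a two-sided exact permutation test cannot reach the 0.05 threshold, so no p is given for ratios and shares.

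**Figure D3:**
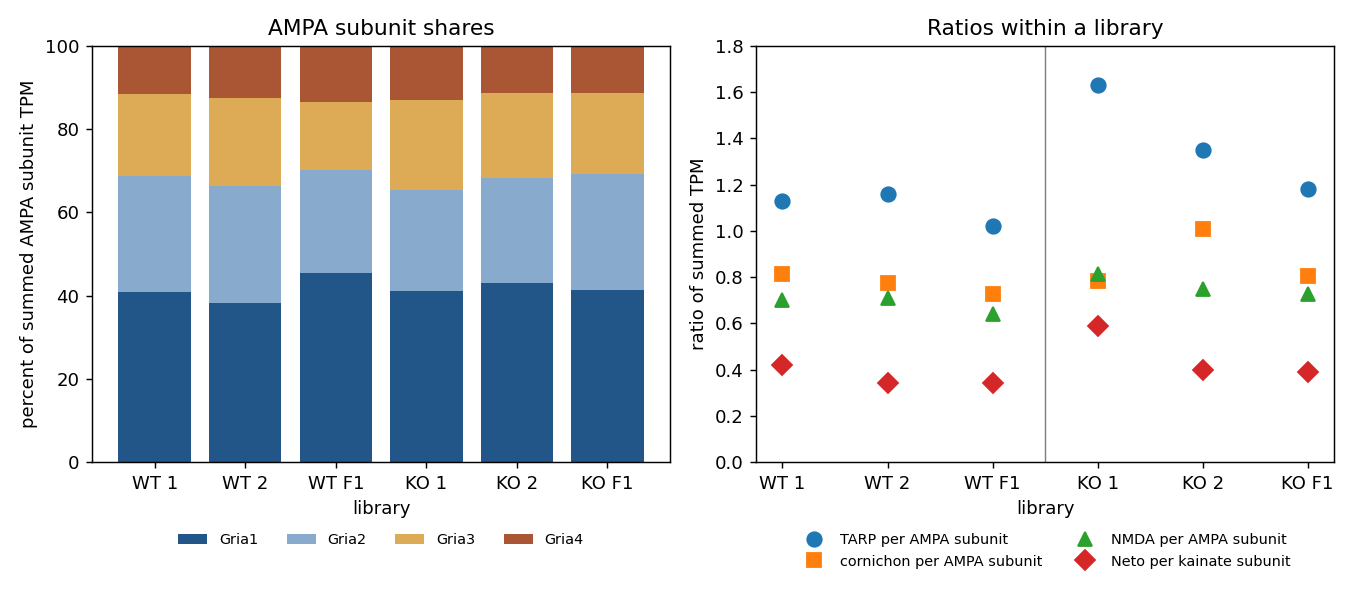
Left, percent of summed AMPA subunit TPM from each of Gria1 to Gria4 (stacked bars) in each library; right, ratios of summed TPM in each library, WT left and KO right of the line. The subunit shares overlap between genotypes, the TARP ratio runs from 1.02 to 1.16 in WT and 1.18 to 1.63 in KO, and the cornichon and Neto ratios overlap.

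A few libraries held most of the extremes. WT replicate F1 was the lowest of the 6 libraries for 19 of the 32 genes, among them Grin1, Grm5, Cacng3, Cacng7 and Neto1, and KO replicate 1 was the highest for 21. Such counts over all genes tested are not given, so these are not shown to be particular to the list. Without both, with no sex term, the median log2 fold change was 0.09 over the 32 genes and 0.14 over the 10 auxiliary genes. In that fit 0 of the 32 were at an unadjusted p under 0.05. It set male WT libraries against a male and a female KO library, so sex and genotype were not separated in it. Leaving out 1 library at a time, the auxiliary median ran from 0.25 (without KO replicate 1) to 0.50 (without KO replicate 2).

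**Figure D4:**
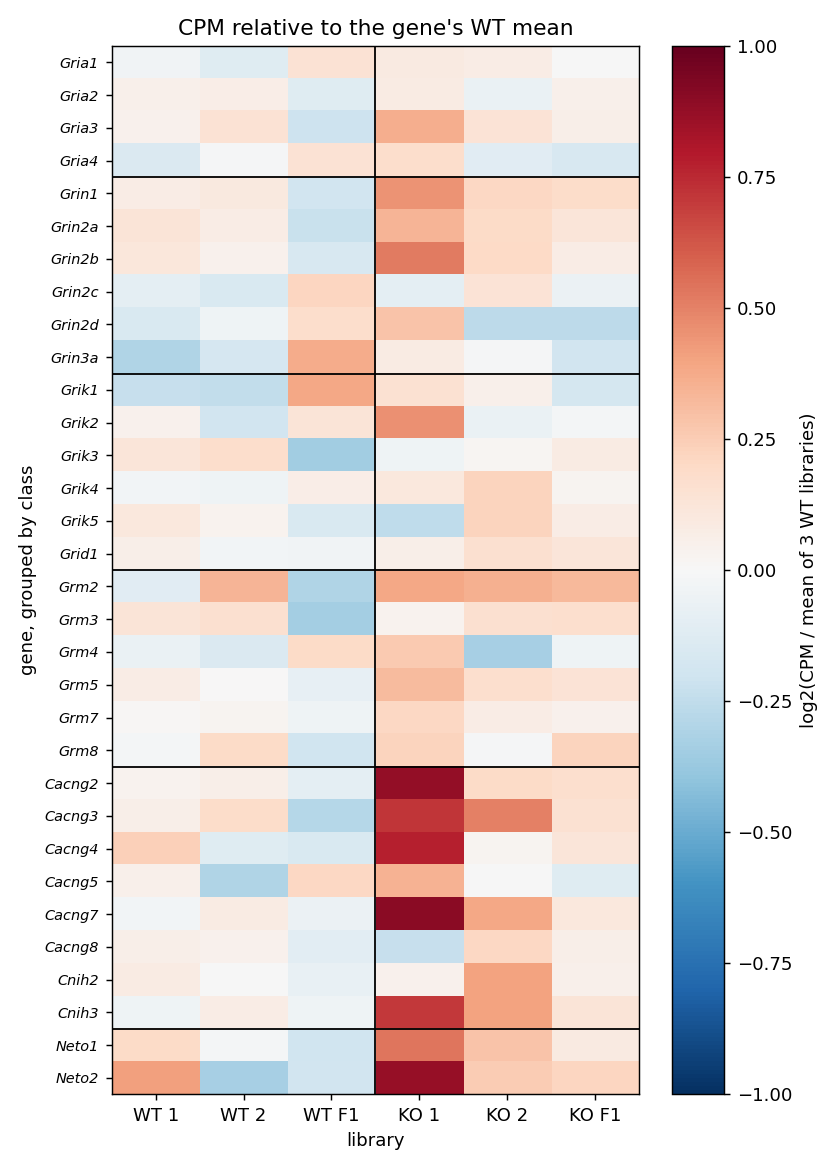
Log2 ratio of each library's TMM-scaled CPM to the gene's mean over the 3 WT libraries, genes in rows by class and libraries in columns, on a colour scale from -1 to 1. The column of KO replicate 1 is the highest for 21 of 32 genes, and that of WT replicate F1 the lowest for 19.

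Markers of cell types and regions moved with these libraries too, and their part in the values above was not tested. Of 12 genes of the list for all neurons, 8 were above 0 (median 0.06, from -0.18 to 0.45), and the summed CPM of the 12, weighted to abundant genes, was 8317, 8797 and 7669 in WT and 10740, 9151 and 8685 in KO. Rbfox3, the gene for the neuronal protein NeuN, was at 342.1, 358.0 and 261.9 CPM in WT and 445.3, 408.7 and 356.5 in KO, with KO replicate 1 the highest and WT replicate F1 the lowest, as in many of the 32 genes. Of 16 cortex and hippocampus markers 14 were above 0 (median 0.27). Their summed CPM was 2113, 2255 and 1716 in WT and 2092, 2528 and 2163 in KO. Of 14 striatum and bed nucleus markers 13 were above 0 (median 0.35). Their summed CPM was 2454, 1549 and 904.5 in WT and 2015, 1890 and 2287 in KO. In both sums WT replicate F1 was the lowest of the 6 libraries. Astrocyte markers were divided, 6 of 12 above 0, with KO replicate 1 at a summed 5952 CPM and the other libraries at 4358 to 5046. Of 10 GABA neuron markers 9 were above 0 (median 0.35), of which DESeq2 called Dlx2 and Dlx5. Of 13 markers of the paraventricular nucleus 7 were above 0 and 6 below (median 0.01, from -1.36 to 0.23). The 2 with the smallest edgeR p were lower in KO, with overlap. Avp was at 27.7, 6.0 and 38.2 CPM in WT and 5.2, 8.3 and 13.8 in KO (-1.36 ± 0.56). Oxt was at 24.8, 5.7 and 27.6 CPM in WT and 8.3, 4.0 and 15.1 in KO (-1.17 ± 0.58). Of 10 microglia markers 8 were below 0 (median -0.14), although DESeq2 called P2ry12, which was higher in KO (0.86 ± 0.18). Of 10 oligodendrocyte markers 6 were below 0 (median -0.04), and of 10 choroid plexus and ependyma markers 6 (-0.05). Above 0 were 6 of 10 thalamus (median 0.12), 7 of 12 cerebellum (0.10), 6 of 10 oligodendrocyte precursor (0.05) and 6 of 10 endothelium markers (0.02). None of these lists had a gene listed at 0 in all libraries, and edgeR called no gene of them.

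Genes that work with these receptors were read from 5 lists, in which neither edgeR nor DESeq2 called any gene. Counts for these and the marker lists are given with TMM scaling only. With it, 49.4% of all genes tested were above 0, and 3.85% were higher in KO at an unadjusted edgeR p under 0.05. Of 25 postsynaptic scaffolds, which anchor receptors at the synapse, 21 were above 0 (median 0.27) and 10 were at an unadjusted p under 0.05 and higher. Iqsec2, an exchange factor that binds NMDA receptor complexes, was at 194 ± 26.3 CPM in WT and 249 ± 39 in KO (log2 fold change 0.36 ± 0.09), and Anks1b at 248 ± 31.8 and 318 ± 40.8 (0.37 ± 0.10; SD, n = 3 each). Of 18 kinases and phosphatases of the postsynapse 16 were above 0 (median 0.25), 6 of them at an unadjusted p under 0.05, among them Camk2b, for a subunit of the calcium-dependent kinase of synaptic plasticity (0.32 ± 0.09), and Prkca, for protein kinase C alpha (0.33 ± 0.11).

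Of 22 genes for AMPA receptor assembly and further auxiliary proteins, 17 were above 0 (median 0.14) and 5 were at an unadjusted p under 0.05. Shisa7 was at 139 ± 22.2 CPM in WT and 189 ± 43.8 in KO (log2 fold change 0.44 ± 0.11) and Gsg1l, for another AMPA auxiliary protein, at 101 ± 24.4 and 136 ± 16.9 (0.46 ± 0.14). Of 22 secreted and adhesive organisers 13 were above 0 (median 0.08), with Nptx1 at 0.25 ± 0.09 and Nptx2 at 0.27 ± 0.10, both for pentraxins that cluster AMPA receptors. Of the receptor genes outside the list, Grm6 had too few counts to be tested, and Grin3b, for an NMDA receptor subunit, was at 0.6 to 0.8 CPM in WT and 0.4 to 0.9 in KO (log2 fold change -0.11 ± 0.36).

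The scaling of the libraries set the zero point of these differences. With library totals in place of TMM the median of all genes was -0.17 and that of the 32 genes -0.03, and with deposited TPM (log2 of TPM plus 1) they were -0.24 and -0.15. The receptor median turned to -0.06 and -0.20 there, while the auxiliary median stayed above 0 at 0.20 and 0.07. Relative to the median of all genes, the median of the 32 genes lay between 0.09 and 0.21 above it in the 20 fits, and the auxiliary median between 0.14 and 0.50. Mitochondrially encoded RNA took 38.6% of TPM in KO replicate 1 against 16.1% to 19.6% in the others. With TPM rescaled without those genes the receptor median was -0.03 and the auxiliary median 0.24.

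**Figure D5:**
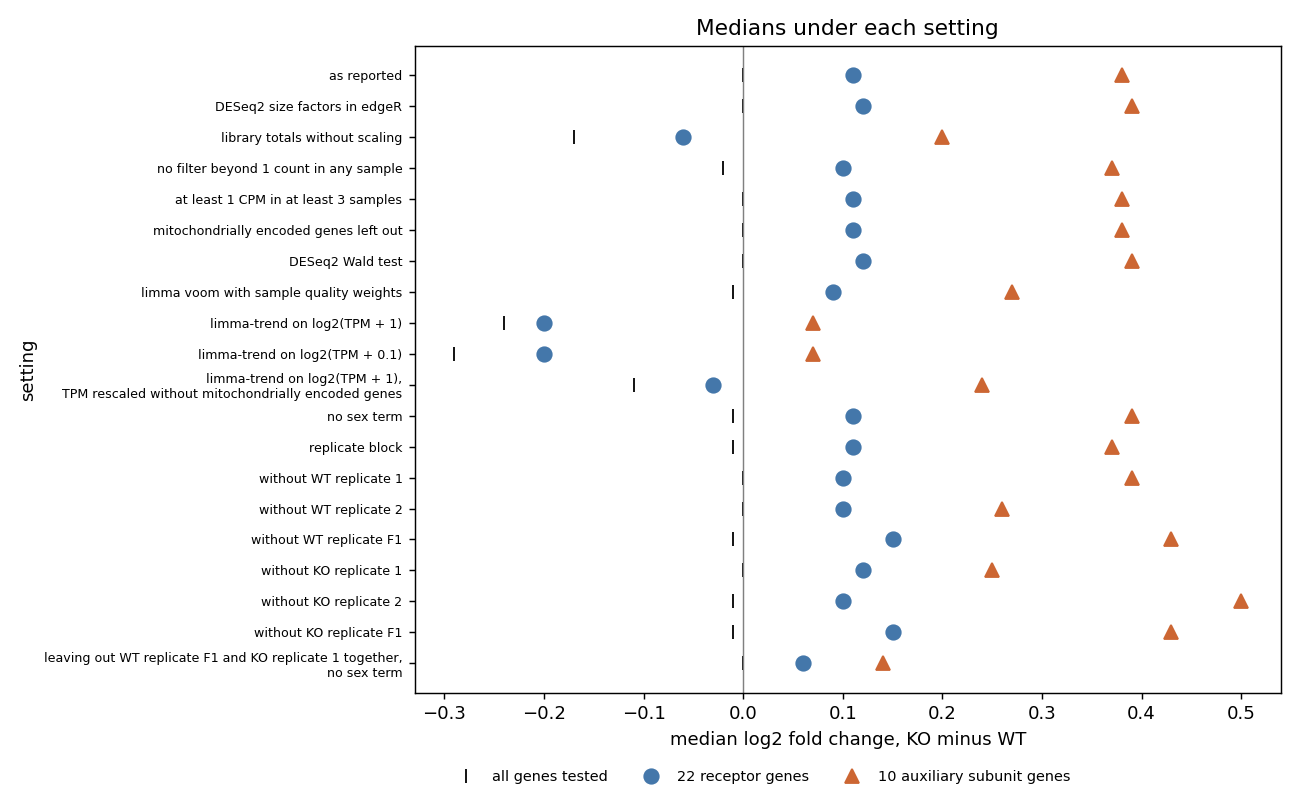
Median log2 fold change (KO minus WT, horizontal axis) of all genes tested (ticks), the 22 receptor genes (circles) and the 10 auxiliary genes (triangles) under each of 20 settings (vertical axis). The triangles lie to the right of the circles and of 0 in every setting shown, from 0.07 to 0.50, while the circles cross below 0 with library totals and with each TPM fit.

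The genotype difference was also compared between the sexes, with 1 female library per genotype and 2 residual degrees of freedom. None of the 32 genes passed edgeR's interaction test, for which 0.0739% of all genes had an adjusted p under 0.05, and 4 of the 32 (12.5%) had an unadjusted p under 0.05 against 7.42% of all genes. The 4 were Grin3a, Grik1, Grik3 and Grm3, and the smallest adjusted p was 0.388, for Grin3a. Grin3a, for the glycine-binding subunit GluN3A, was at 54.5 and 59.6 CPM in the WT males and 70.7 and 66.4 in the KO males, but at 86.8 in the WT female and 58.5 in the KO female (interaction, female minus male, -0.83). Grik1 had the same pattern, with the WT female at 23.6 CPM and the other 5 libraries at 15.2 to 20.1 (-0.90). Grik3 and Grm3 had the opposite one, with the WT female the lowest of the 6 at 116.5 and 43.0 CPM (0.59 and 0.56). In each of these 4 genes the WT female library was the highest or the lowest of the 6. Over the 32 genes it was the highest for 4 and the lowest for 19, so this place is common in the list.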

How the data were processed

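Libraries for mRNA were made from total RNA, per the labels' protocols. The submitters' processing notes list FastQC 0.11.2, Trimmomatic 0.36 and bedtools 2.26.0. For the aligner, counting tool, strand setting and build, the sources used here give nothing. Whole-number counts per gene, TPM and FPKM for each library are as the authors deposited them, per the file headers. FPKM was proportional to TPM and was not used. Counts entered edgeR 4.0.16 (R 4.3.3): filterByExpr, TMM, a robust quasi-likelihood fit of genotype and sex, and Benjamini-Hochberg adjustment over 18956 genes at 0.05. DESeq2 1.42.0 and limma 3.58.1 (voom with sample weights, and limma-trend on log2 of TPM plus 1 or 0.1) were alternatives, with other scaling, filters and libraries left out. The fit was tested on simulated data with absolute log2 fold changes of 1 and 2. It called 94% and 100% of the genes so changed, and made 13 false calls. The values reported for the 32 genes reach 0.48 at most, so this test does not cover differences of their size. Levels are TMM-scaled CPM or deposited TPM.

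The genes described and all lists were chosen with earlier results of these data known. Values in every library were given for genes called, the 2 with the smallest p and the most abundant of each class, and those whose genotypes did not overlap, and for the 2 with the smallest p of each pathway list as means or fold changes; the other genes were given by ranges or fold changes, except Cacng8 and Grin3a, whose library values were chosen after they were seen. One result under this rule is not reported here. Library totals were 35114426 to 54421330 counts. Replicates differed by more than sampling noise. TPM rescaled without mitochondrially encoded genes was added after seeing the data.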

Additional observations from a re-analysis of the deposited data

How the results depend on the processing

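None of the 32 genes was called under any edgeR or limma setting, and DESeq2 called 1. Genes called over all genes were 1 as reported, 75 with DESeq2, 4 with no filter beyond 1 count in any sample, 4 with limma voom and sample quality weights, 4 and 5 with limma-trend on log2(TPM + 1) and log2(TPM + 0.1), 3 with TPM rescaled without mitochondrially encoded genes, 3 with no sex term, 0 with the replicate block and 27 without WT replicate F1 and KO replicate 1 together. Genes of the list at an unadjusted p under 0.05 numbered 8 as reported, 1 with library totals without scaling, 0 with either TPM fit, 2 with rescaled TPM, 4 with no sex term and 0 without those 2 libraries. With library totals the class medians were -0.13 (AMPA), -0.05 (NMDA), -0.09 (kainate and delta), -0.02 (metabotropic) and 0.20 (AMPA auxiliary), and -0.03 over the list. With log2(TPM + 1) they were -0.27, -0.22, -0.22, -0.14 and 0.07, with 0.08 for the Neto genes and -0.15 over the list, and with log2(TPM + 0.1) -0.28, -0.23, -0.23, -0.14, 0.07, 0.08 and -0.16. With rescaled TPM the first 4 were -0.10, -0.06, -0.06 and 0.03, and 0.02 over the list. Without WT replicate F1 and KO replicate 1 the metabotropic median was 0.03 and the AMPA auxiliary median 0.17. The cause of these shifts was not tested. Log2 fold changes turned sign in 14 of the 32 genes with library totals, 20 with either TPM fit and 10 with rescaled TPM, settings that move the median of all genes to -0.17, -0.24 and -0.29, and -0.11. Relative to that median, 28 of the 32 lay above it as reported and with library totals, 23 and 26 with the TPM fits and 25 with rescaled TPM.

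Leaving out 1 library at a time, genes called ran from 0 to 20 (without WT replicate F1), genes of the list at an unadjusted p under 0.05 from 2 to 13 (without KO replicate 1), the AMPA median from 0.02 to 0.14, the kainate and delta median from 0.07 to 0.15, and the median over the list from 0.13 to 0.20. A fit without 1 female library contrasts the males alone, since sex is a term. Genes of the list without overlap numbered 7 as reported, 2 with deposited TPM (Gria4 and Grin2d, both lower), 4 with rescaled TPM, 9 without KO replicate 1, 12 without WT replicate F1 and 14 without both libraries. Over all genes, the shares without overlap there were 0.823% higher and 21.1% lower, 2.84% and 14.1%, 11.4% and 12.1%, 12.1% and 13%, and 19.5% and 20%, in the same order.

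Replicate numbers 1, 2 and F1 recur in both genotypes, but same-numbered libraries did not deviate together (correlations -0.044, 0.019 and 0.018). The F1 libraries share their sex and were still at 0.018, so this check can miss a shared factor. Whether the numbers mark shared litters or days is not known. With the replicate block, 10 genes of the list were at an unadjusted p under 0.05, 0 were called, and the median was 0.13. Each of the 32 genes had at least 578 counts in every library.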
